A study of Mus musculus with 22 samples.

Results

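Esam, Tek, Robo4, Procr, Tie1, Eng, Jam2, Jam3, Bgn and Tgm2 are best known from blood vessels, and several of them also mark haematopoietic stem cells. Members were taken as all probes of a mouse whole-genome bead array that carry 1 of these 10 gene symbols, which gave 20 of the 45281 probes. Of the 10 genes, 7 had a probe detected on at least 4 of the 22 arrays and were tested among 11118 genes. The remaining 3 (Procr, Jam2 and Jam3) did not reach that minimum. Values below are background-corrected, quantile-normalised signals on the log2 scale, on which a difference of 1 is a doubling, and a probe counts as detected where its deposited detection p was below 0.05.

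Every population was isolated from bone marrow, and all donors alike were C57BL/6 mice aged 8 weeks with the GATA1-GFP transgene. GATA1 is the transcription factor of erythroid, megakaryocyte, mast cell and eosinophil development, and the series asked which expression changes go with its up-regulation in early progenitors. GATA1+LSK cells (4 arrays) were set beside LT-HSC (6 arrays), GATA1-LSK cells (4 arrays), LMPP (4 arrays) and CMP (4 arrays). In the field's usual usage LSK denotes lineage-negative, Sca-1-positive, Kit-positive cells, and LT-HSC the long-term haematopoietic stem cells. LMPP are multipotent progenitors primed for lymphoid fates, and CMP are the common progenitors of myeloid cells. The sort gates, the number of mice behind an array and any pooling are not given in the sources used here, so it is not known whether the populations share cells. Nor do the labels say that replicates are separate mice, so the p-values rest on array-to-array spread that could be technical only.

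Blood vessel lining cells and blood stem cells arise from a shared embryonic source, and adult stem cells keep part of the endothelial surface repertoire. The proteins fall into adhesion molecules of cell junctions (ESAM, JAM-B from Jam2 and JAM-C from Jam3), receptors for secreted vascular signals (TIE2 from Tek and its relative TIE1, the guidance receptor ROBO4, the TGF-beta co-receptor endoglin from Eng, and the protein C receptor EPCR from Procr) and extracellular or cross-linking proteins (the matrix proteoglycan biglycan from Bgn and the enzyme transglutaminase 2 from Tgm2). In the mouse, ESAM and EPCR are used to sort stem cells, TIE2 binds the angiopoietins and has been tied to stem cell quiescence, and ROBO4 has been linked to stem cell lodging in bone marrow.

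The arrays lay on 4 slides, and no population was spread evenly over them. Mean deposited intensity ran from 122.6 to 461.9 per array, with slide 2 brightest (310.9 to 461.9) and slide 3 dimmest (122.6 to 208.5), and 12264 to 19015 probes were detected per array. Slide 1 held LMPP and GATA1-LSK only, slide 2 held CMP, GATA1+LSK and LT-HSC, slide 3 held LT-HSC, GATA1-LSK and GATA1+LSK, and slide 4 held GATA1+LSK, CMP and LMPP. LT-HSC and LMPP thus shared no slide, and neither did GATA1-LSK and CMP. Gata1 itself averaged 7.19 ± 0.68 in GATA1+LSK and 5.72 ± 0.36 in GATA1-LSK (SD, n = 4 each; limma adjusted p = 0.00411), and the lymphoid gene Dntt was detected on none of the 4 GATA1+LSK arrays, 5 of 6 LT-HSC arrays and all 4 LMPP arrays. Slamf1, a stem cell marker, was detected on 4 of 4 GATA1+LSK arrays and 3 of 6 LT-HSC arrays. Of the 6 stem cell markers tested, Slamf1 among them, none was called higher in GATA1+LSK than in LT-HSC and 1 was called lower. The LT-HSC arrays were also uneven in genes of myeloid granules used here as CMP markers: Mpo ran from 7.45 to 13.61, Ctsg from 4.92 to 13.44 and Elane from 5.23 to 11.46. Mpo exceeded 13 on all CMP, GATA1-LSK and LMPP arrays (lowest 13.74, 13.08 and 13.17), so this level does not mark CMP alone. Among the LT-HSC and GATA1+LSK arrays, it exceeded 13 in LT-HSC replicates 5 and 6 and in GATA1+LSK replicate 4 (13.25). On these arrays, in that order, Elane read 11.46, 10.84 and 7.72, against 10.43 to 11.10 in CMP. Without these 3 arrays, a choice made after seeing the data, every member call with GATA1+LSK or LT-HSC named first was kept except that of Tek in GATA1+LSK minus GATA1-LSK (0.99, adjusted p = 0.106). In these sorted bulk samples, fewer cells that express a gene and less RNA of it per cell cannot be told apart.

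Esam, Bgn and Tgm2 shared 1 pattern: high in GATA1+LSK, LT-HSC and GATA1-LSK cells, and 10.6- to 35.9-fold lower in LMPP and CMP. Robo4 departed from it, since it was high in LT-HSC, GATA1-LSK and LMPP, intermediate in GATA1+LSK and lowest in CMP. Tek was highest in GATA1+LSK and lowest in LMPP. Eng was modestly higher in LT-HSC than in LMPP and CMP. No difference of Tie1 passed the test in the main fit, of all arrays without blocks on the values described above.

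Counts of members past an adjusted p of 0.05 (limma, Benjamini-Hochberg over 11118 genes) are given beside the share of all tested genes called in the same comparison. For GATA1+LSK minus LMPP, 4 of the 7 members tested were higher and 1 lower, where 8.57% of all genes were called. For GATA1+LSK minus CMP, 5 were higher and none lower, against 6.50% of all genes. For GATA1+LSK minus GATA1-LSK, 1 was higher (Tek) and 1 lower (Robo4), against 2.74% of all genes. For GATA1+LSK minus LT-HSC, only Robo4 was called, as lower, against 10.5% of all genes. These 4 comparisons share the GATA1+LSK arrays. The plot of differences shows each with its interval.

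**Figure D1:**
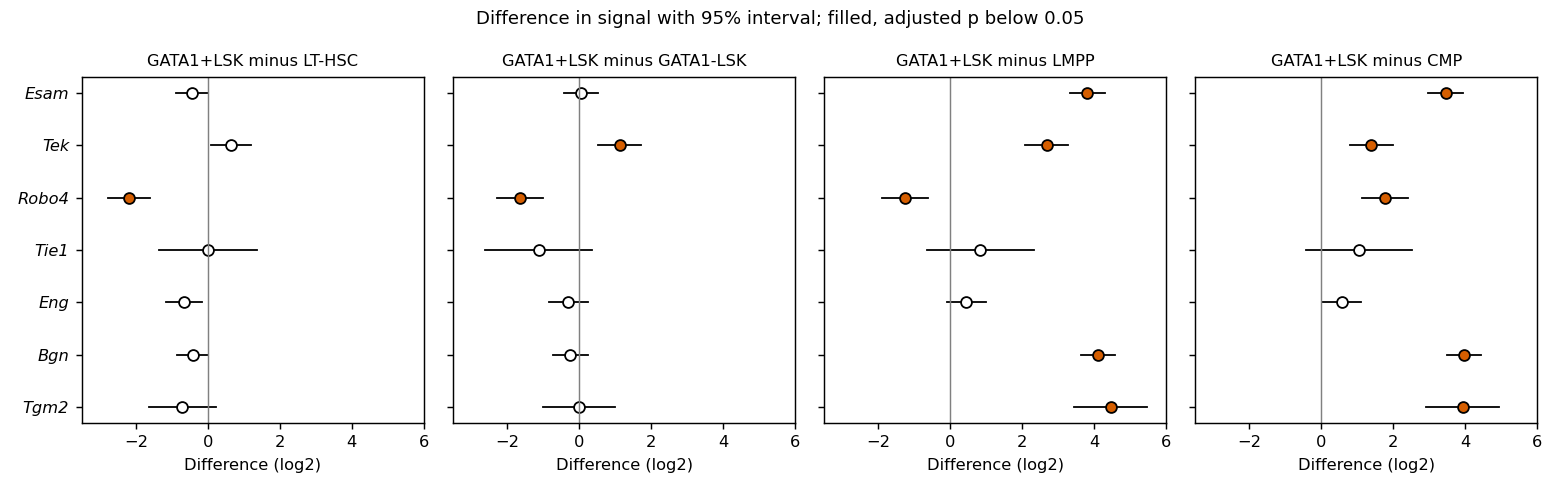
Difference in log2 signal of the 7 members tested between GATA1+LSK and each of the other 4 populations, with the 95% interval of the limma fit. Filled points passed an adjusted p of 0.05; Esam, Bgn and Tgm2 lie between 3.46 and 4.46 against LMPP and CMP and between -0.71 and 0.06 against LT-HSC and GATA1-LSK, while Robo4 lies below 0 in every panel but the one against CMP.

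Between the other populations, 6 members were higher in LT-HSC than in LMPP, all but Tie1, where 16.2% of all genes were called. The same count of 6, again all but Tie1, were higher in LT-HSC than in CMP, against 21.5% of all genes. In GATA1-LSK, 4 members (Esam, Tek, Bgn and Tgm2) were higher than in LMPP, against 3.49% of all genes, and 5 (Esam, Robo4, Eng, Bgn and Tgm2) were higher than in CMP, against 7.67%. In LMPP minus CMP, Robo4 was higher and Tek lower, against 5.89% of all genes. No member was called between LT-HSC and GATA1-LSK, where 5.45% of all genes were called. An unadjusted p below 0.05 was found for 1 member (Esam) of 7, and for 2173 of the 11118 genes tested. Without slide 3, Esam (0.92, adjusted p = 0.0457) and Tek (1.19, adjusted p = 0.0181) were called there as higher in LT-HSC. Slide 3 was the only slide that held both populations, so population and slide cannot be told apart in that fit. Within slide 3 (4 LT-HSC arrays against 1) the differences were 0.22 for Esam and -0.16 for Tek. The median difference of the 7 members was 2.68 in GATA1+LSK minus LMPP and 1.78 in GATA1+LSK minus CMP, beside medians of -0.04 and -0.02 over all genes tested.

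Among the adhesion molecules, Esam encodes an immunoglobulin-family protein of endothelial tight junctions that is also present on platelets and stem cells. Its signals were 11.22, 11.23, 11.22 and 11.26 in GATA1+LSK, 11.13, 11.74 and 12.19 (lowest, median and highest) in LT-HSC, and 11.16, 11.03, 11.26 and 11.25 in GATA1-LSK. They were 7.19, 7.20, 7.69 and 7.60 in LMPP and 7.24, 7.75, 7.80 and 8.31 in CMP. All 14 arrays of the first 3 populations lay above all 8 of the other populations, and the 4 GATA1+LSK values spanned less than those of any other population. The difference was 3.82 ± 0.23 (SE) for GATA1+LSK minus LMPP (14.1-fold, adjusted p = 1.12e-10) and 3.46 ± 0.23 for GATA1+LSK minus CMP (adjusted p = 1.39e-09). Between GATA1+LSK and GATA1-LSK it was 0.06, with a 95% interval from -0.42 to 0.54. Within slide 1, where LMPP and GATA1-LSK each had 3 arrays, GATA1-LSK minus LMPP was 3.79, beside 3.76 over all slides.

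Bgn encodes biglycan, a small leucine-rich proteoglycan of the extracellular matrix that can also act as a ligand of Toll-like receptors. It read 8.81, 9.45, 9.82 and 9.32 in GATA1+LSK, 9.52, 9.75 and 10.09 (lowest, median and highest) in LT-HSC, and 9.78, 9.68, 9.64 and 9.25 in GATA1-LSK. LMPP read 5.40, 5.25, 5.66 and 4.70, and CMP 5.46, 5.64, 5.10 and 5.37. The probe was detected on 3 of 4 LMPP arrays and 3 of 4 CMP arrays, so these levels lie at the edge of detection. The difference was 4.10 ± 0.23 for GATA1+LSK minus LMPP (17.1-fold, adjusted p = 3.19e-11) and 3.96 ± 0.23 for GATA1+LSK minus CMP (15.5-fold, adjusted p = 1.82e-10). For LT-HSC minus LMPP it was 4.51 ± 0.21 (22.9-fold, adjusted p = 1.51e-12). The 3 high populations overlapped with each other.

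Tgm2 encodes a calcium-dependent enzyme that cross-links proteins and also binds GTP, and it is abundant in endothelium. Its signals were 11.31, 11.36, 9.93 and 9.98 in GATA1+LSK, 10.47, 10.96 and 12.69 (lowest, median and highest) in LT-HSC, and 11.07, 10.95, 10.91 and 9.65 in GATA1-LSK. LMPP read 6.73, 6.15, 6.75 and 5.11, and CMP 7.22, 6.89, 6.12 and 6.64. In each population that had arrays on slide 1 or 2, the highest value was on those slides. GATA1+LSK exceeded LMPP by 4.46 ± 0.49 (adjusted p = 1.12e-06) and CMP by 3.93 ± 0.49 (15.2-fold, adjusted p = 1.05e-05), and LT-HSC exceeded LMPP by 5.16 ± 0.44 (35.9-fold, adjusted p = 2.62e-08). GATA1+LSK minus LT-HSC was -0.71 (adjusted p = 0.405). With the replicate number as a block it was -1.05 (adjusted p = 0.0176). That fit held these 2 populations only and left out LT-HSC replicates 5 and 6, which have no same-numbered partner. With slide as a block the difference was -1.03 (adjusted p = 0.00141). Within slide 2 (2 arrays each) it was -1.09 and within slide 3 (1 array against 4) it was -0.88. With slide as a block, LT-HSC minus GATA1-LSK was 1.40 (adjusted p = 0.00828), beside 0.71 without it (adjusted p = 0.405).

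**Figure D2:**
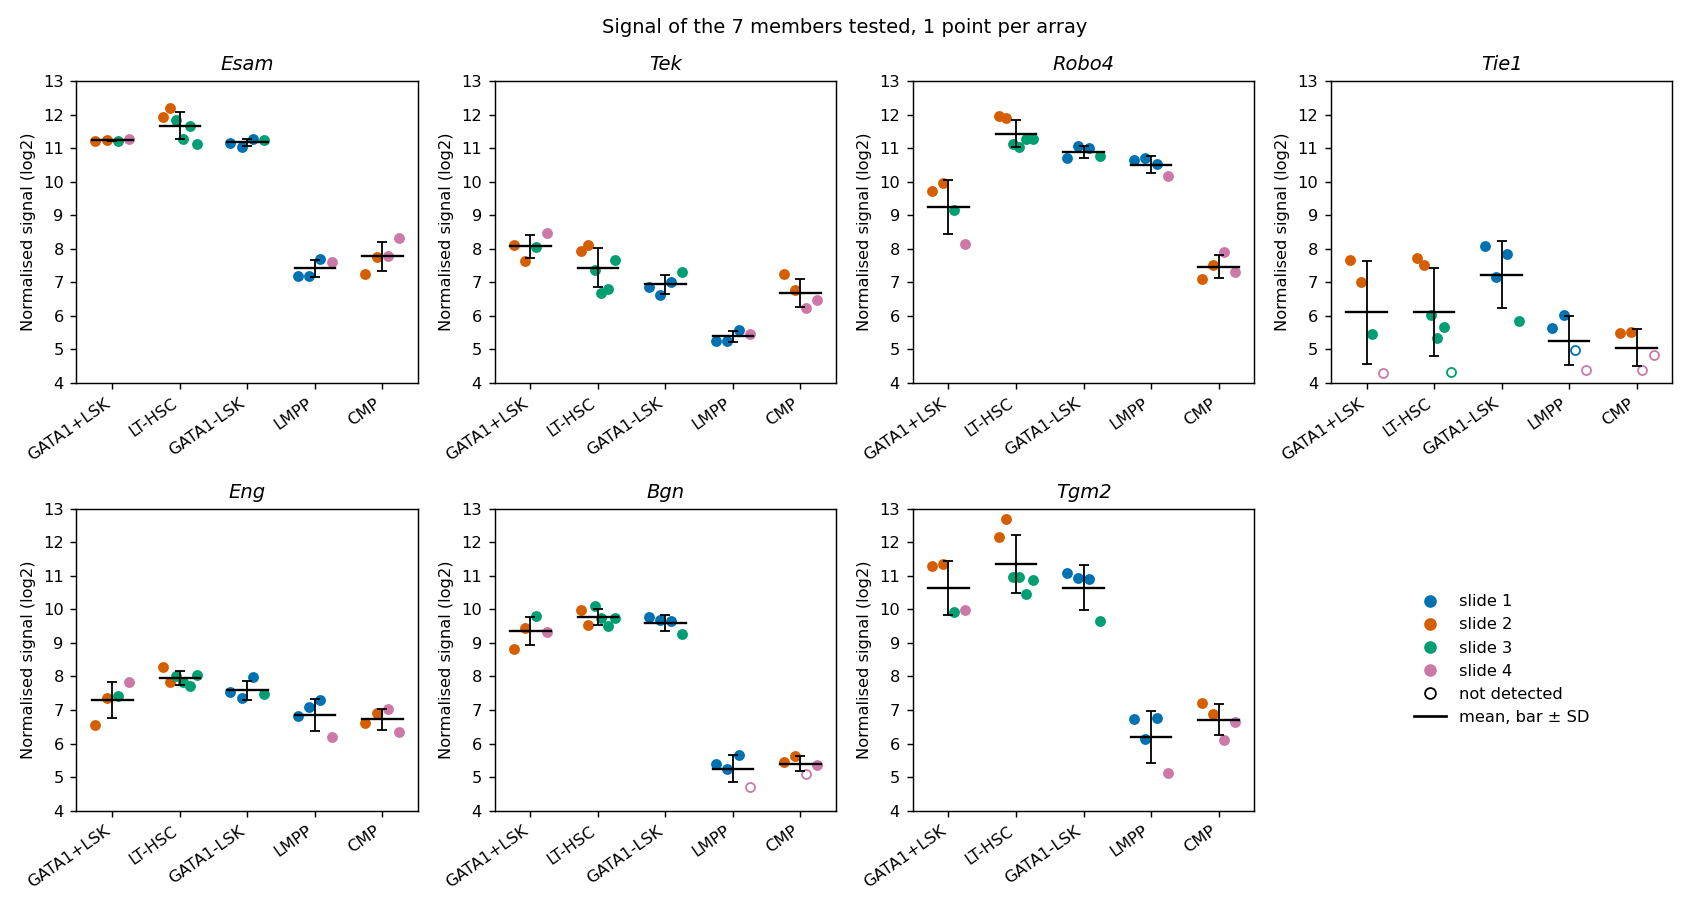
Normalised log2 signal (y axis) of the 7 members tested in the 5 populations (x axis), 1 point per array, coloured by slide, with the mean and SD; open points were not detected. Esam, Bgn and Tgm2 separate the 14 arrays of the first 3 populations from the 8 LMPP and CMP arrays, and Tie1 is highest on slides 1 and 2 within each population.

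Robo4 encodes an endothelial receptor of the Roundabout family. Its signals were 9.72, 9.95, 9.17 and 8.15 in GATA1+LSK, 11.05, 11.27 and 11.97 (lowest, median and highest) in LT-HSC, and 10.70, 11.06, 11.01 and 10.76 in GATA1-LSK. LMPP read 10.66, 10.70, 10.52 and 10.16, and CMP 7.11, 7.53, 7.91 and 7.31. All 4 GATA1+LSK arrays lay below all 14 arrays of LT-HSC, GATA1-LSK and LMPP and above all 4 CMP arrays. GATA1+LSK fell below LT-HSC by 2.19 ± 0.28 on the log2 scale (difference -2.19, 4.55-fold, adjusted p = 1.02e-05). It fell below GATA1-LSK by 1.63 ± 0.31 (difference -1.63, 3.11-fold, adjusted p = 0.00365) and below LMPP by 1.26 ± 0.31 (difference -1.26, 2.40-fold, adjusted p = 0.0091). A fit on only the 2 populations compared kept the sizes of the last 2 differences, with adjusted p of 0.0632 and 0.0777.

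Within slides the Robo4 difference between GATA1+LSK and LT-HSC was -2.10 on slide 2 and -2.01 on slide 3. On slide 3 the single GATA1+LSK array lay 1.60 below the single GATA1-LSK array (difference -1.60), and on slide 4 the difference from the single LMPP array was -2.02. GATA1+LSK exceeded CMP by 1.78 ± 0.31 (3.44-fold, adjusted p = 0.000522), and this difference varied with the slide: it was 2.52 on slide 2 (2 arrays each) and 0.54 on slide 4 (1 array against 2). Without slide 2 it was 1.05 with an adjusted p of 0.0682. The difference between LMPP and CMP was 3.05 ± 0.31 (8.26-fold, adjusted p = 5.03e-07), whereas Esam differed by -0.36 between these populations (adjusted p = 0.528). In Robo4, LT-HSC exceeded LMPP by 0.92 ± 0.28 (1.89-fold, adjusted p = 0.0266), a call that was lost without LMPP replicate 3 or 4 or LT-HSC replicate 1 or 2 (adjusted p of 0.0542 to 0.0855) and with slide as a block (0.94, adjusted p = 0.121). Median scaling ended it too (0.76, adjusted p = 0.0656).

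Tek encodes TIE2, the receptor tyrosine kinase for angiopoietins. Its signals were 8.10, 7.64, 8.06 and 8.47 in GATA1+LSK, 6.69, 7.52 and 8.10 (lowest, median and highest) in LT-HSC, and 6.85, 6.61, 7.01 and 7.29 in GATA1-LSK. LMPP read 5.25, 5.26, 5.59 and 5.47, and CMP 7.23, 6.77, 6.23 and 6.49. The LMPP values, though detected on all 4 arrays, lie near the lowest detected signal (4.69 to 5.55, depending on the array). GATA1+LSK did not overlap with GATA1-LSK, LMPP or CMP, and it did overlap with LT-HSC. It exceeded LMPP by 2.68 ± 0.29 (6.40-fold, adjusted p = 9.71e-07) and CMP by 1.39 ± 0.29 (2.62-fold, adjusted p = 0.00342). LMPP lay below all other populations, with a difference from CMP of -1.29 ± 0.29 (adjusted p = 0.00704). With slide as a block that difference was -0.84 (adjusted p = 0.284), and without slide 2 it was -0.97 (adjusted p = 0.0633).

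GATA1+LSK exceeded GATA1-LSK in Tek by 1.13 ± 0.29 (2.19-fold, adjusted p = 0.0359). The call was lost on leaving out GATA1+LSK replicate 1, 3 or 4 or GATA1-LSK replicate 1, 2 or 3, where the difference ran from 0.99 to 1.15 and the adjusted p from 0.0613 to 0.133. With slide as a block the difference was 0.68 (adjusted p = 0.404), and on slide 3, which alone held both populations with 1 array each, it was 0.77. Against LT-HSC the Tek difference was 0.64 ± 0.26 (adjusted p = 0.145) and its sign differed between slides, at -0.15 on slide 2 and 0.93 on slide 3. Without slide 2 it was 1.13 (adjusted p = 0.0154). LT-HSC exceeded CMP by 0.75 ± 0.26 (adjusted p = 0.047), although their arrays overlapped. Leaving out CMP replicate 2, 3 or 4 or LT-HSC replicate 1, 2, 3 or 6 ended that call (adjusted p of 0.0623 to 0.153). Other settings with all arrays kept ended it too. Among them were the authors' deposited normalised values (0.75, adjusted p = 0.051), cyclic loess (0.73, adjusted p = 0.0503) and median scaling (0.62, adjusted p = 0.12).

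Eng encodes endoglin, which binds BMP9 and TGF-beta ligands together with their signalling receptors. It read 6.56, 7.36, 7.43 and 7.82 in GATA1+LSK, 7.71, 7.93 and 8.29 (lowest, median and highest) in LT-HSC, and 7.54, 7.34, 7.99 and 7.47 in GATA1-LSK. LMPP read 6.81, 7.09, 7.30 and 6.19, and CMP 6.61, 6.90, 7.03 and 6.34. No LT-HSC array overlapped with LMPP or CMP, while GATA1+LSK overlapped with every other population. LT-HSC exceeded LMPP by 1.11 ± 0.24 (2.15-fold, adjusted p = 0.00223) and CMP by 1.23 ± 0.24 (2.35-fold, adjusted p = 0.000582). GATA1-LSK exceeded CMP by 0.87 ± 0.26 (adjusted p = 0.0448), and 7 of the 8 refits that left out 1 array of either population ended that call, the exception being CMP replicate 3 (adjusted p of 0.0593 to 0.152 in the other 7). With slide as a block the difference was 0.43 (adjusted p = 0.628). The call was also lost on the authors' deposited normalised values (0.86, adjusted p = 0.0512) and with median scaling (0.82, adjusted p = 0.0728). GATA1+LSK minus LT-HSC was -0.66 ± 0.24 (adjusted p = 0.0886), and without GATA1+LSK replicate 4 it was -0.84 (adjusted p = 0.0397).

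Tie1 encodes an orphan receptor kinase that modulates TIE2 signalling. It read 7.67, 7.02, 5.45 and 4.28 in GATA1+LSK, 4.33, 5.85 and 7.73 (lowest, median and highest) in LT-HSC, and 8.08, 7.15, 7.83 and 5.86 in GATA1-LSK. LMPP read 5.64, 6.04, 4.99 and 4.38, and CMP 5.50, 5.50, 4.38 and 4.84. It was detected on 3 of 4, 5 of 6, 4 of 4, 2 of 4 and 2 of 4 arrays of GATA1+LSK, LT-HSC, GATA1-LSK, LMPP and CMP. The spread within populations (SD of 1.53 in GATA1+LSK and 1.31 in LT-HSC) followed the slides: the GATA1+LSK and LT-HSC arrays of slide 2 read 7.02 to 7.73, against 4.28 to 6.03 for those of slides 3 and 4. The part of slide brightness in this was not tested.

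GATA1-LSK minus LMPP in Tie1 was 1.97 ± 0.71 (adjusted p = 0.192) over all slides and 2.13 within slide 1 (3 arrays each), and with slide as a block it was 2.04 (adjusted p = 0.00259). GATA1-LSK minus CMP was 2.17 ± 0.71 (adjusted p = 0.0678), and with slide as a block 2.11 (adjusted p = 0.028). LT-HSC minus CMP was 1.05 ± 0.65 (adjusted p = 0.281), 1.60 with the replicate number as a block (adjusted p = 0.00592) and 2.13 within slide 2. LT-HSC minus LMPP was 0.84 ± 0.65 (adjusted p = 0.422), and 1.40 with the replicate block (adjusted p = 0.00777). Both replicate-block fits left out LT-HSC replicates 5 and 6. With no block, but without the LT-HSC and GATA1+LSK arrays of high Mpo, which include these replicates, the differences were the same. They were 1.40 from LMPP (adjusted p = 0.122) and 1.60 from CMP (adjusted p = 0.0615). LT-HSC and LMPP have no slide in common, nor do GATA1-LSK and CMP, so a slide block compares these pairs only through other populations. Without slide 3, LT-HSC minus LMPP was 2.37 (adjusted p = 0.0248) and LT-HSC minus CMP was 2.57 (adjusted p = 0.013). Without slide 2, GATA1+LSK minus GATA1-LSK was -2.36 (adjusted p = 0.0159), beside -1.12 over all slides (adjusted p = 0.513), and LT-HSC minus GATA1-LSK was -1.89 (adjusted p = 0.0184). Only replicates 3 and 4 of GATA1+LSK remained in that fit. On slide 3, the only slide shared with GATA1-LSK, the differences were -0.41 for GATA1+LSK (1 array each) and -0.52 for LT-HSC (4 arrays against 1). Without GATA1-LSK replicate 4, GATA1-LSK minus CMP was 2.63 (adjusted p = 0.032). On all arrays with no block, GATA1-LSK minus CMP was called with cyclic loess (2.04, adjusted p = 0.0356) and with median scaling (2.11, adjusted p = 0.0204). With only the 2 populations compared in the fit it was called too (adjusted p = 0.0081), as was GATA1-LSK minus LMPP (adjusted p = 0.0288). The Tie1 calls thus changed with the normalisation and with which slides and arrays were fitted.

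The members that were not tested include EPCR, a standard stem cell marker. Both Procr probes were below detection on all 22 arrays, with population means from 4.34 to 4.53. The lowest signal of any detected probe was 4.69 to 5.55, depending on the array. Jam3 (1 probe) was detected on none of the 22 arrays, with population means from 4.34 to 4.44. Jam2 encodes JAM-B, a partner of JAM-C between stem cells and their niche in the mouse. Of its 6 probes, 4 were detected on no array, 1 was detected on 1 LT-HSC array and 1 GATA1-LSK array, and 1 on a single LT-HSC array. These probes give only a bound on the 3 genes and do not show that they are not expressed.

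Probes of 1 gene did not all respond. The Robo4 values above come from the brightest of 4 probes. The next was detected on 8 of 22 arrays, with population means from 4.62 to 5.04, and the other 2 on none. On that second probe GATA1+LSK minus GATA1-LSK was -0.34 (adjusted p = 0.67 over 16575 probes), and no comparison of it was called. The Robo4 call between LT-HSC and LMPP was lost when the 2 detected probes were averaged (0.48, adjusted p = 0.154). A second Tgm2 probe was detected on 2 LT-HSC arrays only. Where 2 probes of a gene differ in this way, the array does not tell which follows the transcript.

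**Figure D3:**
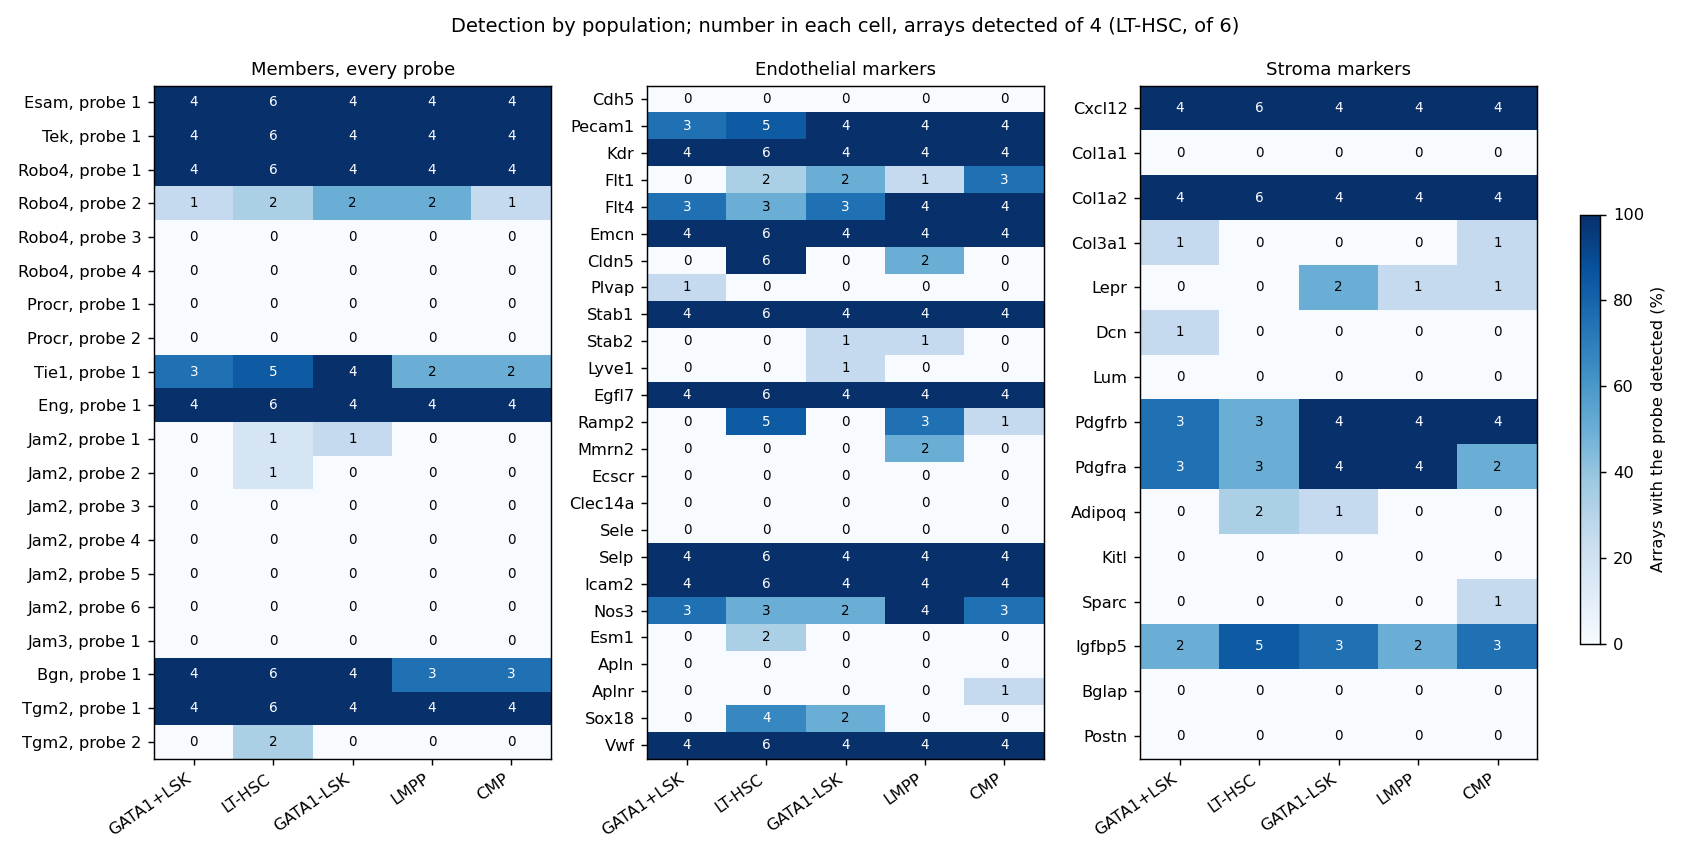
Arrays on which each probe was detected (number in each cell, of 4 arrays, or of 6 for LT-HSC; colour, percent of the population's arrays) for the 20 member probes, 25 endothelial markers and 15 stroma markers. The Procr and Jam3 rows are 0 throughout, and so are the endothelial markers Cdh5, Ecscr, Clec14a, Sele and Apln.

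Promoter windows of 250 bases before to 50 after the start site were available for 6 of the 10 members (RefSeq, GRCm38.p6). Those of Tek and Robo4, the members that differed between GATA1+LSK and GATA1-LSK, and of Bgn, from the group of Esam, Bgn and Tgm2, are shown 5′ to 3′ on the gene's strand. Capitals mark GATAA (the core of GATA factor sites) and GGAAG (a core of ETS factor sites), searched on both strands, so that the reverse complements TTATC and CTTCC are capitalised too.
Tek, chr4:94739039-94739338, plus strand: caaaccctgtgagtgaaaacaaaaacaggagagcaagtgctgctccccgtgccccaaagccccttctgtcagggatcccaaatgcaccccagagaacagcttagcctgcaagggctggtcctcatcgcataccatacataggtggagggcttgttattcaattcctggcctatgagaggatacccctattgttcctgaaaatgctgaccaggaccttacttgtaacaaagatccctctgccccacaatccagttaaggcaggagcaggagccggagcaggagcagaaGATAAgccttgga
Robo4, chr9:37401722-37402021, plus strand: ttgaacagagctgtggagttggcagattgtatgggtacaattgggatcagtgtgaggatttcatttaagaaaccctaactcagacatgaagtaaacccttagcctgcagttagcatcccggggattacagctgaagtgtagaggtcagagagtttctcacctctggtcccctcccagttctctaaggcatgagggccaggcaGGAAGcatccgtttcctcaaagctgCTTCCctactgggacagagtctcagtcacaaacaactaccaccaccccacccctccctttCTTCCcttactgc
Bgn, chrX:73483351-73483650, plus strand: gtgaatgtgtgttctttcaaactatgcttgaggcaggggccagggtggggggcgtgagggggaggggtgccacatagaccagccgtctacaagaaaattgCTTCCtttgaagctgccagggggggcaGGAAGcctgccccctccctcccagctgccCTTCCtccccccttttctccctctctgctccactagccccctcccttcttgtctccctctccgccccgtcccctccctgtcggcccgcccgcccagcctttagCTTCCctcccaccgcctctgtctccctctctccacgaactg
The Tek window held 1 GATAA, 37 bases after the start site, and no GGAAG. The Robo4 window held 3 matches to GGAAG and the Bgn window 4, with no GATAA in either. Of the 32851 windows of that table, 25.4% held GATAA and 71.4% held GGAAG, and TGTGGT (the core of RUNX sites), found in 16.8%, was in none of the 6 member windows. Tie1 had 7 matches to GGAAG, Eng 2 and Procr 1, with no GATAA. A match is a run of letters and does not show binding.

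Robo4 and Esam are near neighbours on chromosome 9 in that annotation, with Robo3 and Msantd2 between them, and both are endothelial genes. Both were lowest or near their lowest in CMP, with LT-HSC minus CMP at 3.97 for Robo4 and 3.90 for Esam and GATA1-LSK minus CMP at 3.42 and 3.40, and r was 0.539 over the 22 arrays. They parted in LMPP and GATA1+LSK. In LMPP, Robo4 averaged 10.51 ± 0.24 and was 0.37 below GATA1-LSK (GATA1-LSK minus LMPP, adjusted p = 0.986), while Esam averaged 7.42 ± 0.26 and GATA1-LSK exceeded LMPP by 3.76 ± 0.23 (adjusted p = 4.98e-10; SD, n = 4 each). In GATA1+LSK minus GATA1-LSK, Robo4 differed by -1.63 and Esam by 0.06. Msantd2 did not reach the detection minimum and Robo3 was not analysed here.

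As a description over the 22 arrays, which share slides and populations, Pearson's r was 0.977 between Esam and Bgn, 0.954 between Esam and Tgm2, and 0.955 between Bgn and Tgm2. It was 0.761 between Esam and Tek and -7.5e-05 between Tek and Robo4. Outside the members, the genes with the most similar signal to Esam were Scarf1, an endothelial scavenger receptor (r = 0.985), and Fhl1, a LIM-domain protein (r = 0.981). Gstt1, a glutathione transferase, came closest to Bgn (r = 0.958) and to Tgm2 (r = 0.976), with Scarf1 next for both (0.957 and 0.954). For Tek they were Ehd3, of the endocytic EHD family (r = 0.910), and Dusp3, a dual-specificity phosphatase (r = 0.908). For Robo4 they were Gimap6, a GTPase of immune cells (r = 0.958), and Serpinh1, a collagen chaperone (r = 0.957). For Eng they were Cdc42bpb, a kinase bound by CDC42, and Uba7, which activates ISG15 (r = 0.852 each).

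**Figure D4:**
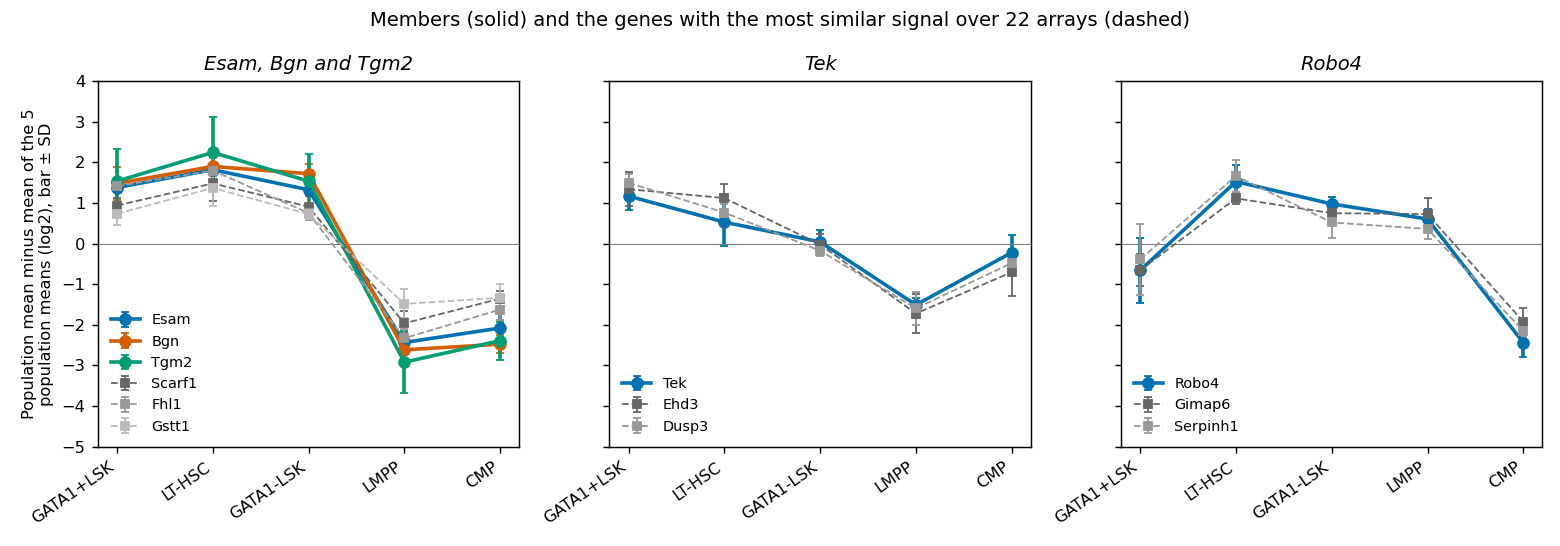
Population means minus the mean of the 5 population means (log2, bars ± SD) for Esam, Bgn and Tgm2, for Tek and for Robo4 (solid), each with the non-member genes of highest Pearson r over 22 arrays (dashed). Esam, Bgn and Tgm2 drop at LMPP and CMP, Tek is lowest in LMPP, and Robo4 is lowest in CMP.

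Dusp3, the companion of Tek, averaged 10.55 ± 0.23 in GATA1+LSK, 9.82 ± 0.21 in LT-HSC, 8.87 ± 0.13 in GATA1-LSK, 7.46 ± 0.40 in LMPP and 8.57 ± 0.05 in CMP. This order is that of Tek. Dusp3 and Gimap6 were picked by their r with Tek and Robo4 over these same arrays. A like order of means therefore follows from that choice and is no separate evidence. Gimap6, the companion of Robo4, averaged 10.50 ± 0.39 in GATA1+LSK, 12.27 ± 0.14 in LT-HSC, 11.91 ± 0.28 in GATA1-LSK, 11.88 ± 0.39 in LMPP and 9.24 ± 0.35 in CMP, so that it too was lower in GATA1+LSK than in LMPP and lowest in CMP (SD, n = 4, or 6 for LT-HSC).

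Partners of the members were read from lists of their pathways. Calls in these lists stand beside the shares of all genes called for GATA1+LSK. These were 8.57% against LMPP, 6.50% against CMP, 2.74% against GATA1-LSK and 10.5% against LT-HSC. Of 8 angiopoietin and Tie genes, 4 were tested. Angpt1, the activating ligand of TIE2, was higher in GATA1+LSK than in LMPP (6.65 ± 0.30 against 5.16, difference 1.49 ± 0.42, adjusted p = 0.0262; a call lost without LMPP replicate 1, 2 or 3 or GATA1+LSK replicate 3 or 4), and Dok2, an adaptor of TIE2, was higher than in CMP (difference 1.55 ± 0.33, adjusted p = 0.00417). None of the 4 was called against GATA1-LSK or LT-HSC. Of 11 Slit and Robo genes, 5 were tested and 1 was called in the 4 GATA1+LSK comparisons, Srgap3, an intracellular partner of Robo receptors. It was higher in GATA1+LSK than in LMPP (1.65 ± 0.24, adjusted p = 4.29e-05) and CMP (1.70 ± 0.24, adjusted p = 5.08e-05).

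Of 11 protein C and thrombin genes, 6 were tested, and all calls in the 4 GATA1+LSK comparisons were of higher signal: 3 genes against LMPP, 3 against CMP, 2 against GATA1-LSK and 2 against LT-HSC. F2rl2, which encodes the thrombin receptor PAR3, averaged 6.62 in GATA1+LSK. It was detected on all 4 of those arrays, on 0 of 6 LT-HSC arrays and on 0 of 4 LMPP arrays, which made it at least 2.89-fold higher than in LT-HSC (adjusted p = 1.54e-05) and at least 3.25-fold higher than in LMPP (adjusted p = 2.9e-05). These bounds set the mean of the bright population against the higher of the probe's own signal and the lowest detected signal on each dim array. F2r, which encodes PAR1, averaged 13.33 in GATA1+LSK and 12.55 in LT-HSC (difference 0.78 ± 0.20, adjusted p = 0.0109). Pros1, the cofactor of activated protein C, was 1.11 ± 0.29 higher in GATA1+LSK than in GATA1-LSK (adjusted p = 0.0383) and 1.90 ± 0.29 higher than in LMPP (adjusted p = 7.79e-05). The Pros1 call against GATA1-LSK was lost without GATA1-LSK replicate 1, 2 or 3 or GATA1+LSK replicate 1 or 4 (adjusted p of 0.0639 to 0.168). F2rl3, which encodes PAR4, was called only against CMP (0.80 ± 0.22, adjusted p = 0.0275), and lost that call without CMP replicate 1 or 2 or GATA1+LSK replicate 4 (adjusted p of 0.0849 to 0.0932). F2r lost its calls without GATA1+LSK replicate 1 against LT-HSC (0.62, adjusted p = 0.0597) and against CMP (0.71, adjusted p = 0.0575). The F2rl2 call against CMP (1.12, adjusted p = 0.0396) was lost without CMP replicate 2, 3 or 4 or GATA1+LSK replicate 3 or 4 (adjusted p of 0.0671 to 0.136).

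Of 21 endoglin, BMP and TGF-beta genes, 15 were tested. Tgfbr3, which encodes the co-receptor betaglycan, averaged 8.16 in GATA1+LSK, 7.47 in LT-HSC, 7.12 in GATA1-LSK, 4.81 in LMPP and 6.53 in CMP, and GATA1+LSK exceeded LMPP by 3.34 ± 0.38 (adjusted p = 1.57e-06) and CMP by 1.62 ± 0.38 (adjusted p = 0.0083). Bmp4, a ligand, was detected on 1 of 4 GATA1+LSK arrays and 5 of 6 LT-HSC arrays (difference -2.48 ± 0.47, adjusted p = 0.000863). Bmpr2, a BMP receptor, averaged 8.23 in GATA1+LSK and 9.50 in LT-HSC (difference -1.28 ± 0.29, adjusted p = 0.00511). No gene of this list was called in GATA1+LSK minus GATA1-LSK, where only 2.74% of all genes were called. The mean of Bmp4 in GATA1+LSK, 4.54, lies below the lowest detected signal, so the size of its difference depends on the background.

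Among 20 genes of the junctional adhesion and CTX families and their ligands, 10 were tested. F11r, which encodes JAM-A, averaged 7.73 in GATA1+LSK, 8.41 in LT-HSC, 6.95 in GATA1-LSK, 5.96 in LMPP and 5.42 in CMP, and GATA1+LSK exceeded CMP by 2.31 ± 0.33 (adjusted p = 7.19e-05). Jaml, a leukocyte adhesion molecule, ran the other way between these populations, with 5.03 in GATA1+LSK against 8.22 in LMPP (difference -3.20 ± 0.45, adjusted p = 2.92e-05) and 7.82 in CMP (difference -2.79 ± 0.45, adjusted p = 0.000232). Itgal, the alpha chain of LFA-1, was also lower in GATA1+LSK than in LMPP (difference -2.06 ± 0.40, adjusted p = 0.00127). Vsig2 averaged 6.45 in GATA1+LSK and 8.34 in LT-HSC (difference -1.89 ± 0.27, adjusted p = 3.72e-05) and was detected on none of the 4 CMP arrays, at least 2.90-fold below GATA1+LSK.

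Of 11 small leucine-rich proteoglycan and Toll-like receptor genes, 3 were tested. Tlr2, which encodes a receptor for which biglycan is a ligand, was lower in GATA1+LSK than in LMPP (difference -1.20 ± 0.32, adjusted p = 0.0189) and LT-HSC (difference -0.98 ± 0.29, adjusted p = 0.0336). Leaving out 1 array ended the Tlr2 call for 3 arrays against LMPP (adjusted p up to 0.0959) and for 6 against LT-HSC (adjusted p up to 0.163). Prelp was detected on 0 of 4 GATA1+LSK arrays and 4 of 6 LT-HSC arrays (adjusted p = 0.0353, at least 1.29-fold lower), and 7 of the 10 refits without 1 array ended that call (adjusted p of 0.0637 to 0.0999). Of 9 transglutaminase genes, 3 were tested, and F13a1, which encodes the coagulation factor XIII A chain, was not detected in GATA1+LSK (0 of 4) or LT-HSC (0 of 6). It averaged 9.91 in CMP, against which GATA1+LSK was at least 30.0-fold lower (adjusted p = 7.1e-13), so that it and Tgm2 had opposite differences between GATA1+LSK and CMP.

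Of 17 transcription factor genes shared by blood and endothelium, 15 were tested. In GATA1+LSK minus LMPP, Gata2 was 2.80 ± 0.33 higher (adjusted p = 3.3e-06), Tal1 1.20 ± 0.22 higher (adjusted p = 0.000712) and Meis1 0.75 ± 0.21 higher (adjusted p = 0.0229), while Ets1 was lower (difference -1.93 ± 0.60, adjusted p = 0.0491). The Ets1 call rested on single arrays: without GATA1+LSK replicate 4, which read 5.48, the difference was -1.04 (adjusted p = 0.172), and Meis1 lost its call without LMPP replicate 3 or 4 or GATA1+LSK replicate 3 or 4 (adjusted p of 0.0501 to 0.0953). None of the 15 was called between GATA1+LSK and GATA1-LSK, where only 2.74% of all genes were called. Ets1 averaged 8.14 ± 1.86 (SD, n = 4) in GATA1+LSK, 9.74 in LT-HSC, 8.84 in GATA1-LSK, 10.07 in LMPP and 7.41 in CMP, with a lowest value in CMP as for Robo4.

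Markers of endothelial cells were read across the same arrays. Of 25 endothelial markers, 14 were tested and 5 were detected on no array, among them Cdh5, the defining cadherin of endothelium. The summed level of the list, on the linear scale, ran from 7784 to 13927 in GATA1+LSK, 12087 to 15655 in LT-HSC, 9594 to 12321 in GATA1-LSK, 12772 to 18767 in LMPP and 6104 to 13395 in CMP. Its median was highest in LMPP, where Esam, Bgn and Tgm2 were low, but there Egfl7, Icam2 and Stab1 made up 92.5% of it. Without those 3 genes, left out after their values were seen, the median sum was 3327 in GATA1+LSK, 5266 in LT-HSC, 1513 in GATA1-LSK, 1135 in LMPP and 1154 in CMP. Without Vwf as well, it was 778.0 in GATA1+LSK, 2085 in LT-HSC, 1225 in GATA1-LSK, 1102 in LMPP and 785.8 in CMP. The lowest medians were thus those of LMPP and CMP with the first cut and of GATA1+LSK and CMP with the second. The order of populations depended on the genes left out. The part of such cells in the members' differences was not tested. Of 15 bone marrow stroma markers, 6 were tested, none was called in the 4 GATA1+LSK comparisons, and 5 were detected on no array, Col1a1 among them. Their sum was 188.2 to 287.2 in GATA1+LSK and 129.3 to 342.1 in LT-HSC.

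Single endothelial markers had patterns of their own. Vwf, which encodes von Willebrand factor and is also a megakaryocyte gene, averaged 11.21 in GATA1+LSK, 11.62 in LT-HSC, 8.32 in GATA1-LSK, 5.66 in LMPP and 8.82 in CMP, and GATA1+LSK exceeded GATA1-LSK by 2.89 ± 0.31 (adjusted p = 6.39e-06). Cldn5, a tight junction claudin, was detected on 0 of 4 GATA1+LSK arrays and on 6 of 6 LT-HSC arrays, as well as on 0 of 4 GATA1-LSK arrays. GATA1+LSK was at least 6.65-fold below LT-HSC in Cldn5 (adjusted p = 5.12e-08). Egfl7, a secreted vascular factor, was lower in GATA1+LSK than in LMPP (difference -1.79 ± 0.29, adjusted p = 0.000162), as was Pecam1 (difference -1.70 ± 0.40, adjusted p = 0.00753). Counted over the list, 1 marker was higher and none lower against GATA1-LSK, 1 higher and 2 lower against LMPP, 2 higher and 1 lower against CMP, and none higher and 5 lower against LT-HSC. The shares of all genes called in these comparisons were, in that order, 2.74%, 8.57%, 6.50% and 10.5%.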

How the data were processed

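RNA of 22 arrays (Illumina mouse whole-genome bead arrays, biotinylated cRNA) was measured by probe intensity. The authors deposited non-normalized intensity values that hold numbers below 0, so a background had already been subtracted, and, per the file headers, a detection p-value for each probe and array. They also deposited a matrix of intensity values that share 1 distribution over arrays. BeadStudio is named, without a version, per the submitters' processing notes.

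Here the intensities were background-corrected, quantile-normalised and put on the log2 scale with neqc (limma 3.58.1 in R 4.3.3, offset 16, background from detection p-values); these log2 values were computed from the deposited intensities. Platform annotation gave 34885 probes 1 gene, 18 several and 10378 none. Probes with 1 gene and a detection p below 0.05 on at least 4 arrays were kept, and the brightest stood for each gene, leaving 11118 genes. A linear model with 1 mean per population over all arrays (17 residual degrees of freedom, lmFit and eBayes) gave 10 two-sided comparisons, each adjusted by Benjamini-Hochberg over all genes with a threshold of 0.05. Differences run in the order the populations are named; errors of differences are SE. The number of arrays limits the precision. No 2 arrays were identical (highest correlation 0.991). The code was tested on simulated data.

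Replicate numbers were checked as pairs by the correlation of same-numbered arrays' deviations from population means. Every pair exceeded 0.1 in GATA1+LSK with CMP (0.187 to 0.584), GATA1+LSK with LT-HSC (0.240 to 0.641), LT-HSC with LMPP (0.111 to 0.484), LT-HSC with CMP (0.174 to 0.582) and LMPP with CMP (0.327 to 0.473); some of these pairs share a slide. Alternatives covered background correction, normalisation, detection filter, probe choice, slide, pairing, the samples fitted and each array left out.

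Non-members are named by rule: the 2 genes of highest Pearson r for each of 6 members, and from each pathway list up to 4 genes called in a GATA1+LSK comparison, largest difference first. Members, lists and tests were chosen with earlier results of these data known. Promoter sequences and gene order are from RefSeq (GRCm38.p6).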

Additional observations from a re-analysis of the deposited data

Results flagged for a closer look

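Each of the 7 members tested was screened in each of the 5 populations for a lowest or highest array that stands apart from the rest (35 screens), and chance alone marks about 1 in 20. The screen marked 1 value: Tgm2 in GATA1-LSK replicate 4, at 9.65, below the other 3 arrays at 10.91 to 11.07. That array is the only GATA1-LSK array on slide 3, where the GATA1+LSK array read 9.93 and the 4 LT-HSC arrays 10.47 to 10.96, against 12.17 and 12.69 for LT-HSC on slide 2. Without that array Tgm2 differed between GATA1+LSK and GATA1-LSK by -0.33, beside 0.00 with it, and neither was called.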

How the results depend on the processing

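Over members and comparisons, 1855 refitted tests were made; 1763 kept their side of the threshold, 61 lost a call, 31 gained one and no called difference changed sign. Esam, Bgn and Tgm2 kept their calls against LMPP and CMP for GATA1+LSK, LT-HSC and GATA1-LSK under every alternative run, and Robo4 kept its call in GATA1+LSK minus LT-HSC under every alternative run (-2.66 to -1.29). The number of members called in GATA1+LSK minus GATA1-LSK was 2. It was 1 with median scaling, without the detection filter, with slide as a fixed or random block and with a variance trend. Without the 3 LT-HSC and GATA1+LSK arrays of high Mpo it was also 1. It was 0 with only those 2 populations or with the replicate block, where the numbers do not pair the arrays (adjusted p of 0.0522 for Tek and 0.0685 for Robo4). Leaving out 1 array gave 1 to 2. Without slide 2 the count rose, since Tie1 was called (adjusted p = 0.0159) beside Tek (adjusted p = 0.00624) and Robo4 (adjusted p = 0.000134). For GATA1+LSK minus LT-HSC the count was 1, and 2 with slide as a fixed or random block, with the replicate block and without slide 2; leaving out 1 array gave 1 to 2. For LT-HSC minus GATA1-LSK it was 0, and 1 with slide as a fixed block or without slide 2 and 2 without slide 3. For LMPP minus CMP it was 2, and 1 with slide as a fixed or random block or without slide 2. The replicate block raised Tie1 past the threshold in GATA1-LSK minus LMPP (adjusted p = 0.00196) and minus CMP (0.00515), which are not paired, and changed no call beyond these and those given with the results. The tests without slide 2 or 3, on values quantile-normalised after log2, and adjusted over all 10 comparisons were chosen after seeing the data. Genes called in all for GATA1+LSK minus GATA1-LSK ranged from 128 (replicate block) to 1705 (without slide 2), beside 305. Cause was not tested for any of these changes. Signals near the lowest detected level (Bgn and Tie1 in LMPP and CMP, and Tek in LMPP) limit their differences.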
